A study of Mus musculus with 4 samples.

Results

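The 9 genes described here make, carry, sense or destroy retinoic acid, or answer to it: Stra6, Rdh10, Aldh1a1, Aldh1a2, Crabp1, Cyp26b1, Rara, Rarg and Stra8. They were chosen by symbol from the 31017 gene symbols of the count matrices, and each symbol belonged to 1 identifier. Their levels were followed in single cells of immature mouse testis, cultured or taken directly from the animal. All 4 libraries came from Acr-Gfp tg mice of the C57BL/6 background, which carry a Gfp transgene named for the sperm gene Acr. For the cultures, testes were removed at 7 days post partum (dpp), freed of their capsule, cut into fragments and placed on agarose gel in α-MEM with AlbuMAX under a chip ceiling of PDMS, a gas-permeable silicone. These organ cultures were sampled after 2 or 7 days. The in vivo libraries came from testes at 9 and 14 dpp, so that each culture had an in vivo library of the same nominal age. Each group was 1 library, made with the 10x 3′ version 2 chemistry, and the number of animals behind a library was not stated. There was therefore no replicate error: every interval below covers counting error in 1 library only, and no difference between groups was tested. The retinoid content of the medium was not given in the sources used here. The labels repeat the culture text for the in vivo libraries, and their library text names female gonads and ES-derived cells, so the description of the in vivo material is uncertain. Germ, Sertoli and Leydig cell markers were found in all 4 libraries.

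Retinoic acid is made inside the testis from vitamin A. Retinol is taken up through STRA6, oxidised to retinaldehyde by RDH10 and to retinoic acid by the ALDH1A enzymes, while CYP26 enzymes break the acid down. It acts through nuclear receptors of the RAR family and is needed for spermatogonia to differentiate and to enter meiosis, a step at which Stra8 is induced.

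The unit is the UMI, a tag that marks 1 captured RNA molecule. Levels are UMIs of a gene per 1000000 UMIs (CPM), summed over the cells of a type within a library. Where 4 values stand in a row, they give the cultures first (2 days, then 7) and the in vivo libraries after them (9 dpp, then 14 dpp). Since only 3′ ends were captured, levels of different genes were not compared. The files held 5149 to 7710 barcodes and 34491701 to 60829941 UMIs per library. After filters 23038 cells remained, between 4816 and 6877 per library, with median depths of 3606 to 8544.5 UMIs. The shallowest cells were those of the 2-day culture. Pairs of libraries shared 35 to 86 barcode sequences, at most 1.35% of the smaller library. Cells were typed by marker UMIs that included no member. Germ-like cells (Ddx4, Dazl and 4 other markers) numbered 2504 to 3731 per library, Sertoli-like cells (Sox9, Amh and others) 534 to 1146, and Leydig-like cells (Cyp17a1, Star and others) 60 to 98. Stromal-like cells (Dcn, Pdgfra and others) numbered 590 to 2232, and myoid-like cells (Acta2, Myh11 and others) 225 to 614. Below, these are called by the cell type alone, and stromal and myoid cells together are called interstitial. That label is a convenience: it takes in the myoid cells of the tubule wall and leaves out Leydig cells. A further 471 cells carried markers of more than 1 type and 347 carried too few. An independent clustering put 99.4% of germ, 100% of Sertoli, 99.4% of Leydig and 98.4% of interstitial cells into clusters of the same name. Stromal and myoid cells of the cultures were not told apart by cluster: the clusters named myoid, 15 and 18, held 6 and 3 cells of the 2-day culture and 2 and 8 of the 7-day culture, so that nearly all their myoid cells by marker lay in clusters named stromal.

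Sertoli and interstitial cells of culture and in vivo mostly fell into different clusters, while 49.4% to 63.9% of germ cells lay in 6 clusters with at least 50 cells of every library. In the 2-day culture, inflammatory and acute-phase genes led several of them. Ccl5, Cxcl5, Cxcl9 and Spp1 led the cluster that held 51.2% of its interstitial cells. Lcn2, Cebpd and Cxcl1 led the cluster with 61.3% of its Sertoli cells, and Ccl2, Saa3 and Cxcl5 the cluster with 36.3% of its germ cells. In the 7-day culture those shares were 1.9%, 95.1% and 6.9%. Another 38.6% of Sertoli cells of the 2-day culture lay in a cluster led by Plac8, Saa3 and the stromal gene Col1a1, and haemoglobin genes were among the leading genes of the cluster with 81.0% of the Sertoli cells at 14 dpp. The part of these states in the differences below was not tested. Nor could the shares of cells with a UMI be compared directly between libraries of unequal depth, so they are given after thinning cells to 2000 UMIs. Cells with fewer were left out of these shares, unequally: 1301, 257, 95 and 275 cells per library, among them 408 of 2778 germ and 419 of 1146 Sertoli cells of the 2-day culture against 29 and 14 at 9 dpp. In sums over all cells, fewer cells of a type and less RNA per cell cannot be told apart.

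Over all kept cells, 1 of 9 members was at least 2-fold higher in the 2-day culture than at 9 dpp, Rdh10, and 1 was at least 2-fold lower, Cyp26b1. Of the 16616 genes measured, 4.19% were that much higher and 3.41% that much lower. No member reached 2-fold between the 7-day culture and 14 dpp, where 3.6% of genes were higher and 2.67% lower. From 9 to 14 dpp in vivo, Stra6 alone was at least 2-fold apart, and lower, against 1.97% of genes lower and 4.09% higher. From 2 to 7 days of culture, Cyp26b1 was higher, against 4.52% of genes, and Rdh10 lower, against 2.37%. Differences within cell types are given by role below. The median log2 ratio of all genes was -0.12 for the 2-day pair and 0.00 for the 7-day pair.

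**Figure D1:**
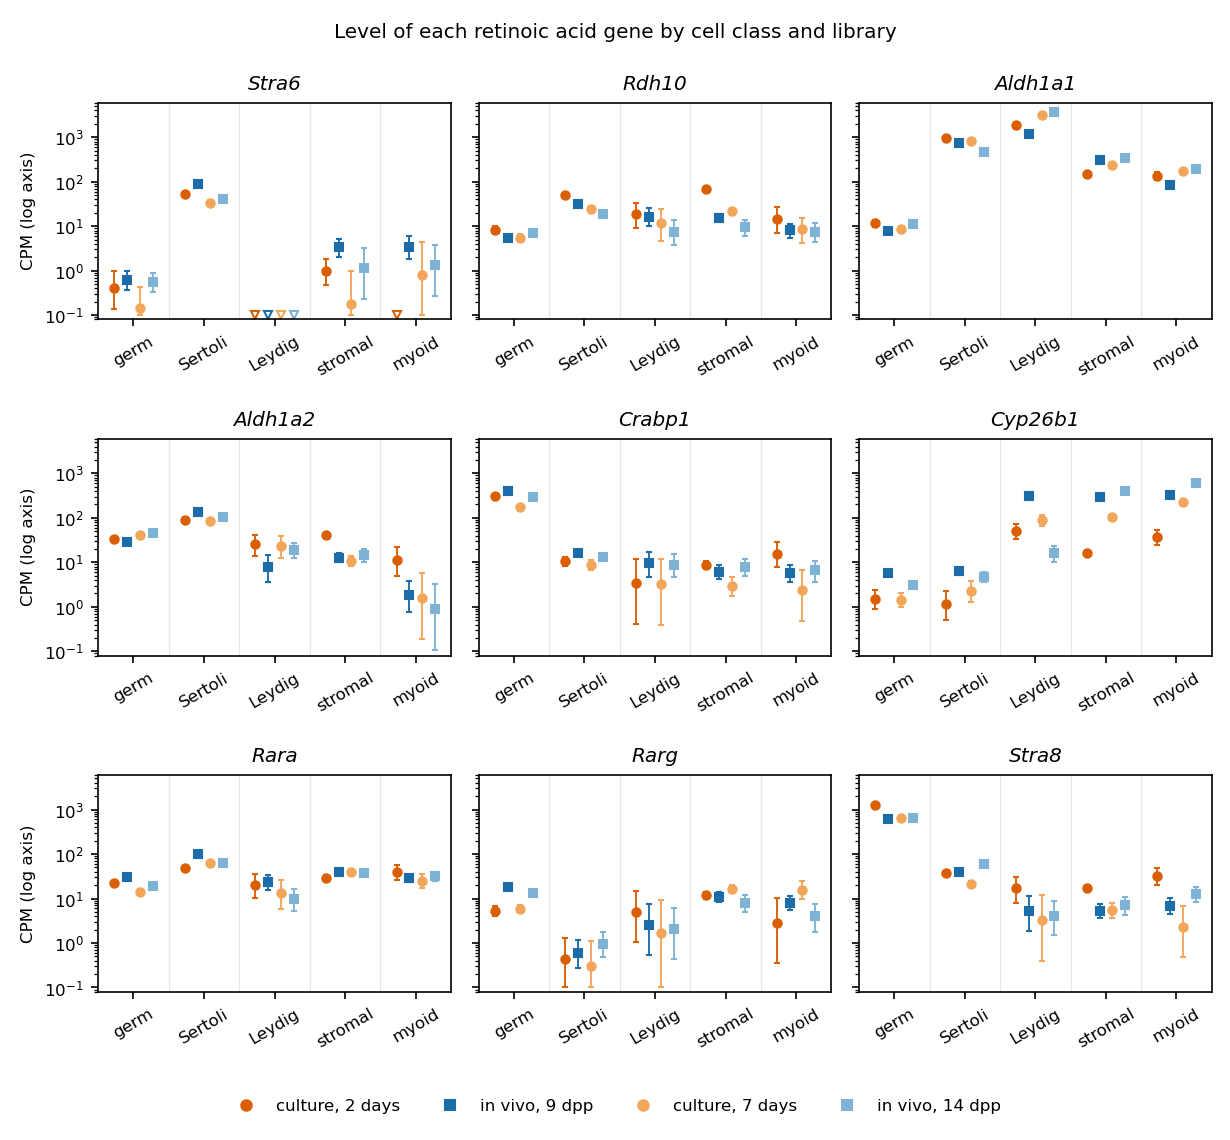
Level of each of the 9 genes (CPM, log axis, 1 panel per gene) in germ, Sertoli, Leydig, stromal and myoid cells of the 4 libraries; circles are cultures, squares in vivo, bars the exact Poisson 95% interval cut at the lower edge, and open triangles at the lower edge stand for 0 UMIs. Stra6 sat in Sertoli cells, Crabp1 and Stra8 in germ cells, and Cyp26b1 in stromal, myoid and Leydig cells.

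Stra6, the membrane receptor for retinol, was almost confined to Sertoli cells, which held 92.5% and 95.7% of its UMIs after 2 and 7 days of culture and 94.9% and 81.9% at 9 and 14 dpp. Its Sertoli level was 51.7 and 33.7 CPM after 2 and 7 days of culture, against 90.1 and 41.8 CPM at 9 and 14 dpp. The 9 dpp library was the highest and its interval, 85.3 to 95 CPM, lay apart from the other three. In vivo the Sertoli level at 14 dpp was lower than at 9 dpp by more than 2-fold (log2 ratio of CPM + 1, -1.09), a call that was lost with TMM scaling (-0.98) and with a stricter cell filter (-0.71). Culture and in vivo differed by less: -0.79 for the 2-day pair and -0.30 for the 7-day pair. No Stra6 UMI was seen in any Leydig cell, where 3 UMIs would have been 2.06 to 5.06 CPM. In germ cells the level was at most 0.62 CPM. Interstitial cells stood at 0.929, 0.287, 3.40 and 1.21 CPM in the same order.

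Rdh10, the enzyme that turns retinol into retinaldehyde, was higher in culture in the interstitium. In interstitial cells it stood at 63.8 and 19.1 CPM after 2 and 7 days of culture, against 12.3 and 8.49 CPM at 9 and 14 dpp. The 2-day culture was the highest, and both cultures exceeded both in vivo libraries. The log2 ratio was 2.28 (95% counting interval 2.02 to 2.55) for the 2-day pair and 1.08 (0.63 to 1.54) for the 7-day pair, the second falling to 0.65 when 10 CPM were added in place of 1. Thinned cells gave the same order, with a Rdh10 UMI in 10.2%, 3.99%, 2.86% and 1.88% of interstitial cells. Among the interstitial clusters, the cluster of the 2-day culture led by Ccl5 and Cxcl5 (cluster 4) stood at 86.8 CPM. The cluster both cultures shared (cluster 0, led by Plcxd3 and Tmem150c) stood at 24.5 CPM after 2 days and 10.3 CPM after 7 days. Cluster 13, led by C4b and Apoe, held 52.7% of the interstitial cells of the 7-day culture and stood there at 23.9 CPM (19.3 to 29.2). The in vivo clusters with over 100 cells lay between 7.5 and 16.2 CPM. In myoid cells alone the levels were 14.3, 8.60, 8.03 and 7.48 CPM, and in Sertoli cells 51.5, 24.1, 31.4 and 18.6 CPM. Leydig cells had only 7 to 19 Rdh10 UMIs per library (18.5, 11.5, 16.5 and 7.57 CPM), with overlapping intervals.

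The ALDH1A enzymes carry out the last step, from retinaldehyde to retinoic acid. Aldh1a1 was a gene of Leydig and Sertoli cells. Its Leydig level was 1894 and 3170 CPM after 2 and 7 days of culture, against 1201 and 3780 CPM at 9 and 14 dpp. The older library of each kind was the higher, and the 14 dpp level exceeded the 9 dpp level with a log2 ratio of 1.65. Sertoli cells stood at 948, 842, 761 and 463 CPM in the same order, so both cultures lay above both in vivo libraries. The Sertoli log2 ratios were 0.32 for the 2-day pair and 0.86 for the 7-day pair, which reached 1.01 in thinned cells and in cells typed by cluster. Stromal cells ran the other way, at 151 and 237 CPM in the cultures and 314 and 345 CPM in vivo. The stromal log2 ratio for the 2-day pair was -1.06, and -0.92 with TMM scaling. Myoid cells stood at 137, 173, 82.4 and 193 CPM, higher in the 2-day culture than at 9 dpp by less than 2-fold (0.73). In germ cells Aldh1a1 stood at 7.65 to 11.7 CPM. After subtracting the free RNA estimated from held-out Sertoli, interstitial and Leydig genes, 0 to 3.5 CPM were left.

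Aldh1a2 was found in germ cells, Sertoli cells and, in the 2-day culture, stromal cells, with fewer UMIs in Leydig cells. Interstitial cells stood at 40.1 CPM after 2 days of culture against 9.20 after 7 days, and at 8.40 and 8.29 CPM at 9 and 14 dpp. The last 3 had overlapping intervals, and the 2-day culture lay apart from them. Its log2 ratio to 9 dpp was 2.13 (1.82 to 2.44), while the 7-day culture stood 0.13 from 14 dpp. Stromal cells alone stood at 42.1, 10.9, 12.7 and 14.6 CPM. Myoid cells stood at 11.5, 1.56, 1.87 and 0.88 CPM, from 2 to 8 UMIs per library. As with Rdh10, the cluster led by Ccl5 and Cxcl5 was the highest, at 57.8 CPM for Aldh1a2. The shared cluster 0 stood at 11.7 CPM after 2 days and 2.1 CPM after 7. Cluster 13, the larger one of the 7-day culture, stood there at 14.3 CPM. In Sertoli cells the levels were 91.7, 85.7, 135 and 103 CPM and no pair differed 2-fold. Leydig cells stood at 25.3, 23.1, 7.79 and 19.3 CPM, from 9 to 28 UMIs per library. Subtracting free RNA left 7.12 and 17.6 CPM in the cultures and 2.18 CPM at 9 dpp. Germ cells stood at 32.9, 40.2, 28.9 and 46.1 CPM, and their early prophase cells at 50.5, 59.4, 63.6 and 82.2 CPM against 20.1 to 31.8 CPM in differentiating spermatogonia.

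**Figure D2:**
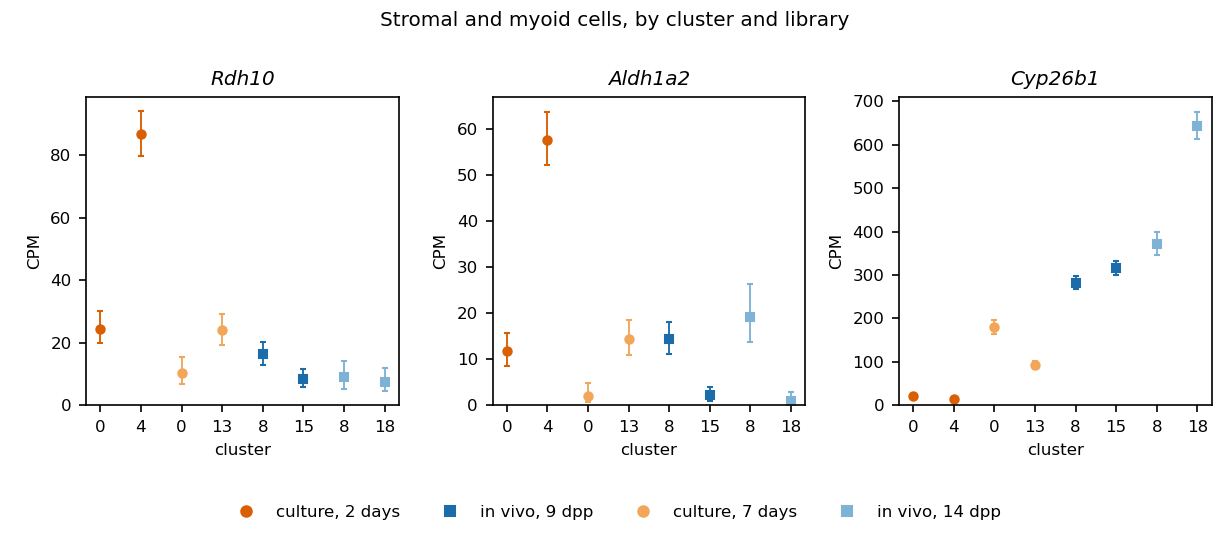
Rdh10, Aldh1a2 and Cyp26b1 (CPM, linear axes) in the clusters of interstitial cells, by library, with exact Poisson 95% intervals. For Rdh10 and Aldh1a2 the 2-day culture's cluster 4 was highest, at 86.8 and 57.8 CPM, and for Cyp26b1 that cluster was lowest, at 13.7 CPM.

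Crabp1, which encodes a retinoic acid binding protein of the cytoplasm, was a germ cell gene: germ cells held 93.1% to 97.3% of its UMIs. Its germ level was 309 and 174 CPM after 2 and 7 days of culture, against 397 and 288 CPM at 9 and 14 dpp. Each culture lay below its in vivo pair, by less than 2-fold (log2 ratios -0.36 and -0.73). The level varied more with stage than with culture. Differentiating spermatogonia stood at 427, 383, 611 and 568 CPM, and undifferentiated spermatogonia at 104 to 110 CPM in all 4 libraries, from only 22 cells in the 2-day culture. Early prophase cells stood at 140, 68.3, 108 and 53.9 CPM, where the 2-day culture and 9 dpp were the higher libraries. In this stage each culture lay above its in vivo pair, by less than 2-fold. Differentiating spermatogonia made up 13.5% and 6.63% of germ cells in the cultures and 25.4% and 10.8% in vivo. The part of this mix in the germ level was not tested. In interstitial cells, with 20 to 98 UMIs per library, the 7-day ratio of -1.10 turned to 0.41 when free RNA was subtracted.

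Cyp26b1, a cytochrome P450 that degrades retinoic acid, showed the widest difference between culture and in vivo of the members. It was a gene of stromal and myoid cells, which together held 71.4% to 87.8% of its UMIs. Interstitial cells stood at 17.7 and 129 CPM after 2 and 7 days of culture, against 300.4 and 502 CPM at 9 and 14 dpp. Neither culture reached the in vivo range, and the 2-day culture was the lowest by far. The log2 ratio was -4.01 (-4.22 to -3.81) for the 2-day pair and -1.95 (-2.06 to -1.84) for the 7-day pair, and it was 2.81 from 2 to 7 days of culture. Among thinned interstitial cells, 3.36%, 20.2%, 40.7% and 58.1% had a Cyp26b1 UMI. The difference was seen in stromal cells (16.3, 107, 289 and 407 CPM) and in myoid cells (37.2, 231, 318 and 613 CPM). The myoid ratio of the 7-day pair was -1.41, and typing by cluster left too few cultured myoid cells to check it. Within cluster 0, shared by the cultures, the level was 19.9 CPM after 2 days and 179 CPM after 7 days, against 282 to 645 CPM in the in vivo clusters with over 100 cells. In cluster 13 of the 7-day culture the level was 91.3 CPM. Sertoli cells, at 1.16 to 6.31 CPM, and germ cells, at 1.46 to 5.91 CPM, had little Cyp26b1.

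Leydig cells did not follow the stromal and myoid cells in vivo. Their Cyp26b1 level was 50.6 (34.1 to 72.2) and 87.4 (65.5 to 114) CPM after 2 and 7 days of culture, against 315 (284 to 349) and 15.8 (10 to 23.7) CPM at 9 and 14 dpp. The 9 dpp library was the highest and the 14 dpp library the lowest, with the cultures between. With cells typed by cluster the 7-day pair was no longer 2-fold apart. Held-out stromal genes stood in Leydig cells at 21.1%, 25.1%, 35.3% and 25.9% of their interstitial level. Subtracting Cyp26b1 in that proportion left 46.7, 54.9, 209 and 0 CPM.

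The 152 bases just before the Cyp26b1 gene as GENCODE M21 spans it (chr6:84571414-84593908, minus strand of GRCm38) are shown because this gene differed most. They lie at chr6:84593909-84594060, and the RefSeq start from which the window was cut lies further downstream, inside the GENCODE span, with the TATAAA 139 bases before it. The sequence, from RefSeq, is printed 5′ to 3′ with the single TATAAA word in capitals.
Cyp26b1 upstream: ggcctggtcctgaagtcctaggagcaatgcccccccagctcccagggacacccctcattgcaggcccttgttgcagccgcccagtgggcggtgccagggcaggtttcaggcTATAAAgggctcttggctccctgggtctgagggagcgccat
TATAAA, read on the gene's strand, was in 8.32% of 32851 windows of 300 bases around mouse gene starts. The Cyp26b1 window held none of the retinoic acid receptor half-site words searched, on either strand: AGGTCA, the variant AGTTCA, the variant GGGTCA and the variant GGTTCA. Of all windows 43.7% held at least 1.

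Rara and Rarg encode nuclear receptors for retinoic acid. Of the cell types, Rara was highest in Sertoli cells, at 47.3 and 61.3 CPM after 2 and 7 days of culture, against 97.8 and 63.5 CPM at 9 and 14 dpp. The 9 dpp library stood above the others, and the 7-day culture and 14 dpp overlapped. The Sertoli log2 ratio of the 2-day pair was -1.03 (-1.20 to -0.86), at the 2-fold line, and -0.94 with TMM scaling. The 7-day ratio was -0.05. Germ cells had 22.4, 14.3, 30.9 and 19.3 CPM of Rara, and interstitial cells 30.1 to 36.8 CPM in all 4 libraries.

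Rarg was lower in cultured germ cells. Their level was 5.17 and 5.92 CPM after 2 and 7 days of culture, against 18.2 and 13 CPM at 9 and 14 dpp. The counts behind these values were 62, 122, 553 and 446 UMIs, and the cultures lay apart from both in vivo libraries. The log2 ratios were -1.64 (-1.96 to -1.31) and -1.02 (-1.27 to -0.76), the second -0.95 in thinned cells, and with 10 CPM added they were -0.89 and -0.53. In differentiating spermatogonia the levels were 6.93, 6.71, 17.3 and 16.1 CPM, so that the cultures again had the lower values, with the intervals of the 7-day culture and 14 dpp overlapping. Early prophase cells stood at 3.04 to 5.19 CPM in all 4 libraries. In interstitial cells Rarg ran the other way in the 7-day pair, at 16.5 CPM in the culture and 6.07 at 14 dpp, with a log2 ratio of 1.31. Sertoli cells had less than 1 CPM of Rarg.

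**Figure D3:**
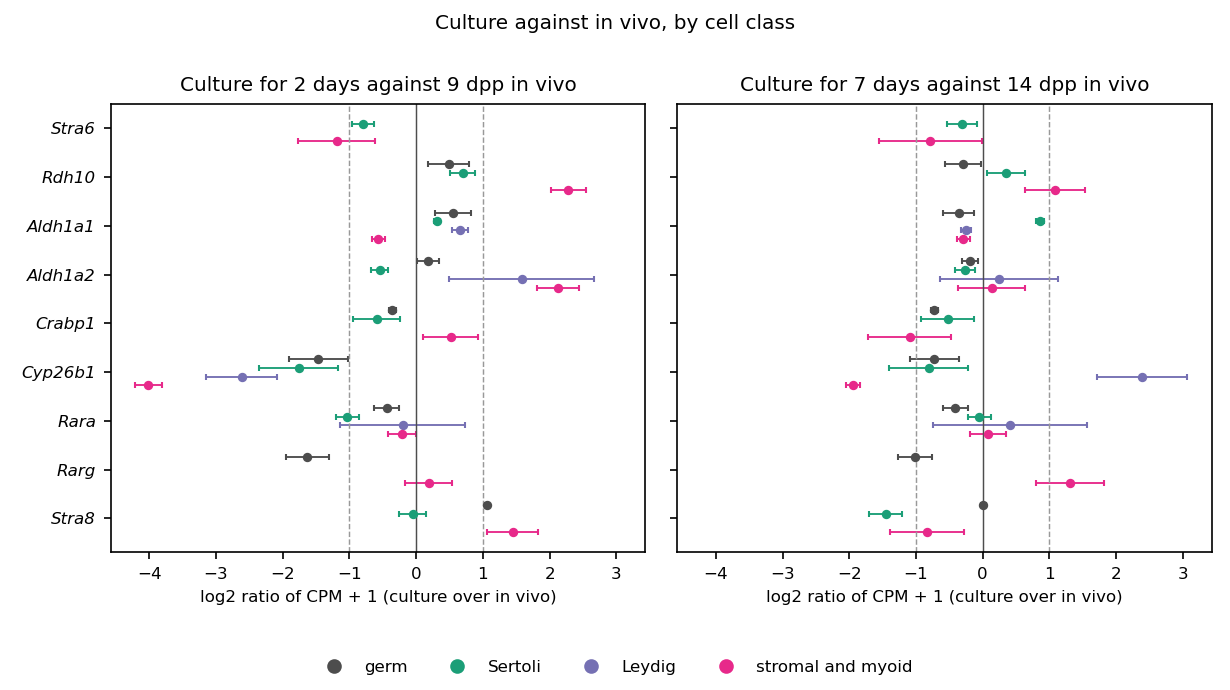
Log2 ratio of CPM + 1, culture over in vivo, for each gene and cell type, in the 2-day pair and the 7-day pair; bars are 95% counting intervals and dashed lines mark 2-fold. Only genes with at least 50 UMIs in a cell type are drawn, and stromal and myoid cells are drawn together. Of the points drawn, Cyp26b1 in interstitial cells lies farthest below 0 in both pairs, at -4.01 and -1.95.

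Against the background of each cell type, the counts of members at least 2-fold apart were as follows. In germ cells Cyp26b1, Rarg and Stra8 were apart in the 2-day pair, 3 of 8 members measured against 4.44% of all genes, and Rarg alone in the 7-day pair, against 3.26%. In Sertoli cells Cyp26b1 and Rara were apart in the 2-day pair, 2 of 8 against 12.6%, and Stra8 in the 7-day pair, against 17.4%. In interstitial cells Stra6, Rdh10, Aldh1a2, Cyp26b1 and Stra8 were apart in the 2-day pair, 5 of 9 against 13.1%. In the 7-day pair Rdh10, Crabp1, Cyp26b1 and Rarg were, 4 of 9 against 9.62%. The calls on Stra8 in Sertoli and interstitial cells were lost when free RNA was subtracted, which left 0 CPM of Stra8 in interstitial cells of all 4 libraries. With 10 CPM added in place of 1, other calls on low levels were lost too: Cyp26b1 of the 2-day pair in germ (-0.47) and Sertoli cells (-0.55) and Rara in Sertoli cells (-0.91). In interstitial cells Stra6 (-0.29) and Stra8 (0.81) of the 2-day pair and Crabp1 (-0.42) and Rarg (0.72) of the 7-day pair were lost.

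Stra8, required for germ cells to enter meiotic prophase, is the gene of this set that retinoic acid is best known to induce. Its window in RefSeq holds the half-site AGGTCA, a sequence that retinoic acid receptors are known to bind, at 2 places, shown here because Stra8 was the member read as the response. They lie 194 and 38 bases before the RefSeq start, which is inside the longer GENCODE span of the gene (chr6:34920163-34939344), on chromosome 6 of GRCm38, plus strand, at chr6:34920744-34920769 and chr6:34920900-34920925, and the half-site is in capitals.
Stra8 half-site 1: tggggtgaaaAGGTCAtcttgctcct
Stra8 half-site 2: ctggggtaccAGGTCAgttttttacc
AGGTCA on either strand was in 16.3% of all windows, so its presence describes the sequence and shows no binding. No member's window held a direct repeat of the 4 half-site words spaced by 1, 2 or 5 bases, which 0.588% of windows did. Windows were found for 8 of the 9 members, all but Rdh10.

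Germ cells held 94.4% to 97.3% of Stra8 UMIs. Their level was 1281 and 636 CPM after 2 and 7 days of culture, against 611 and 630 CPM at 9 and 14 dpp. The 2-day culture stood apart, and the other three lay between 611 and 636 CPM. The log2 ratio was 1.07 (1.04 to 1.10) for the 2-day pair and 0.01 for the 7-day pair. With each cell weighted equally the first was 0.77. After thinning, 16.1% of germ cells in the 2-day culture had no Stra8 UMI, against 47.2% of those cultured for 7 days and 54.6% and 51.7% at 9 and 14 dpp. Cells with at least 5 UMIs made up 18.6%, 8.57%, 12.1% and 14.4%. In Sertoli cells Stra8 was read at 37.5, 21.2, 38.9 and 59.9 CPM, while held-out germ genes stood there at 2.99%, 3.51%, 5.20% and 9.58% of their germ level. That proportion of germ Stra8 left 0, 0, 7.1 and 0 CPM.

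By stage markers, Stra8 was more than 2-fold higher in differentiating spermatogonia of the 2-day culture than at 9 dpp, and lower, by less than 2-fold, in early prophase cells of both cultures. Differentiating spermatogonia stood at 1219 and 760 CPM after 2 and 7 days of culture, against 526 and 695 CPM at 9 and 14 dpp. Early prophase cells stood at 1524, 861, 2121 and 1336 CPM. The log2 ratios were 1.21 and 0.13 in the first stage and -0.48 and -0.63 in the second. Undifferentiated spermatogonia had 256, 89.9, 70.5 and 86.4 CPM. Stage could be set for fewer than 1 in 2 germ cells: 49.0% to 56.4% carried markers of neighbouring stages without one prevailing, and the differentiating cells of the 2-day culture were shallower (median 5289 UMIs) than those at 9 dpp (13494.5).

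Stra8 was also read in the 6 germ clusters that held at least 50 cells of every library, formed without the members or the other retinoid genes. Reading Stra8 by cluster was chosen after its values were seen. In cluster 5 and cluster 10 both cultures lay above both in vivo libraries, and in the other 4 clusters no pair differed 2-fold. Cluster 5, led by E2f2, Hist1h2ap and Hist1h1a, genes of DNA replication, had 193 to 471 cells per library. Its Stra8 level was 1607 and 854 CPM after 2 and 7 days of culture, against 267 and 134 CPM at 9 and 14 dpp. The cultures were 5.99-fold higher in the 2-day pair and 6.33-fold in the 7-day pair (log2 ratios 2.58, 2.47 to 2.70, and 2.66, 2.52 to 2.81). Cells with a Stra8 UMI after thinning were 93.7%, 69.8%, 29.5% and 20.6%. Cluster 10, led by the mitotic genes Plk1, Ube2c and Cdc25b, showed the same order at 1109, 701, 404 and 231 CPM, with folds of 2.74 and 3.03.

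Cluster 2, led by 1700031F05Rik, Pparg and M1ap, was the highest in Stra8, at 2510 and 2754 CPM in the cultures and 3049 and 3198 CPM in vivo, with log2 ratios of -0.28 and -0.22. Cluster 7, where 90.4% to 96.4% of cells were early prophase by marker, stood at 1077, 1320, 1780 and 1393 CPM of Stra8, with ratios of -0.72 and -0.08. Cluster 14, led by haemoglobin genes that germ cells are not known for, stood at 1123, 786, 933 and 744 CPM (0.27 and 0.08). Cluster 9, with the undifferentiated markers Nanos3, Upp1 and Ret among its leading genes, stood at 281, 195, 310 and 357 CPM (-0.14 and -0.87).

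Stage markers differed between the libraries in clusters 5 and 10. In cluster 5 the summed differentiating markers stood at 847, 972, 898 and 967 CPM, and the summed early prophase markers at 2538, 2212, 1480 and 2118 CPM, where 9 dpp was the lowest. Early prophase cells by marker made up 24.4% of the cluster in the 2-day culture and 5.5%, 5.4% and 7.0% in the other libraries. In cluster 10 they made up 17.8%, 4.8%, 7.2% and 4.6%, and the summed early prophase markers stood at 2296, 1998, 1774 and 2372 CPM. The part of these differences in the Stra8 level was not tested. Of members measured in cluster 5, Rarg and Stra8 were apart in the 2-day pair (2 of 7 against 7.07% of genes) and Stra8 in the 7-day pair (against 3.8%). In cluster 10 Stra8 was apart in the 2-day pair (against 5.97%), and Rarg and Stra8 in the 7-day pair (against 4.58%). In cluster 2 only Rarg was apart, in both pairs, against 4.04% and 4.71%. In cluster 9 Rarg was apart in the 2-day pair, against 16.6%, and no member in the 7-day pair, against 3.33%. No member measured was apart in cluster 7 (against 7.18% and 4.02%) or cluster 14 (against 6.09% and 4.49%), where Rarg had too few UMIs. In clusters 2, 5, 9 and 10, where Rarg was measured, its log2 ratios ran from -0.47 to -2.22, negative in all 8. The counts were low: in that order 7, 2, 5 and 7 Rarg UMIs after 2 days of culture and 4, 15, 32 and 17 after 7 days. The -2.22, in cluster 5, rests on 2 culture UMIs. Intervals of culture and in vivo levels were apart only for the 2-day pair in cluster 5 and the 7-day pair in cluster 10.

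**Figure D4:**
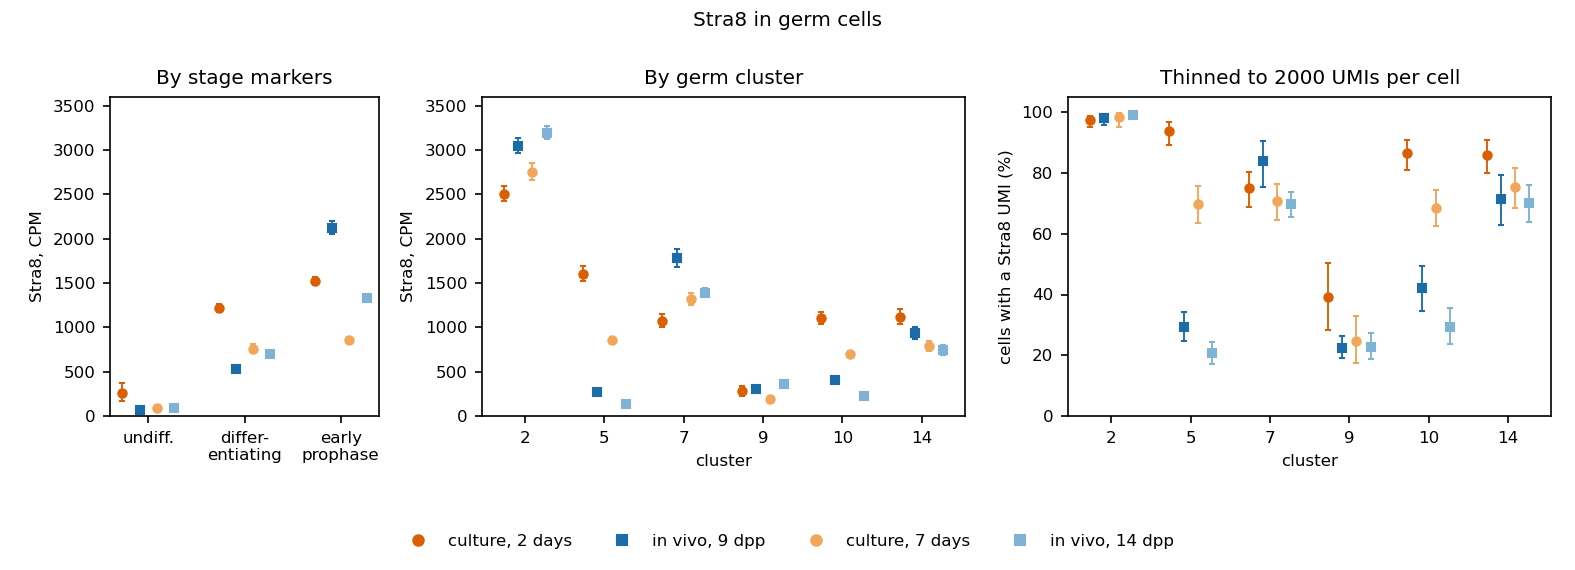
Stra8 in germ cells of the 4 libraries: CPM by stage set from markers, CPM by the 6 shared germ clusters (linear axes, exact Poisson 95% intervals), and percent of cells with a Stra8 UMI after thinning to 2000 UMIs (exact binomial 95% intervals). In cluster 5 the cultures, at 1607 and 854 CPM, lie above the in vivo libraries, at 267 and 134 CPM, while cluster 2 is high in all 4.

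Germ cells with much Stra8 also had more Rdh10. In cells with at least 5 thinned Stra8 UMIs, Rdh10 stood at 15.8 and 12.9 CPM after 2 and 7 days of culture and 18.2 and 26.1 CPM at 9 and 14 dpp. In cells with none it was 7.5, 3.9, 3.6 and 3.9 CPM. The intervals of these cell sets were apart in all libraries but the 2-day culture, from 13 to 77 Rdh10 UMIs per set. Aldh1a2 was higher in the Stra8-rich cells in the 2-day culture (41.2 against 25.9 CPM, with overlapping intervals), at 9 dpp (53.6 against 22.0) and at 14 dpp (72.0 against 45.6), and not in the 7-day culture (45.6 against 47.6). Crabp1 was highest in cells with 1 to 4 Stra8 UMIs, at 336, 273, 439 and 411 CPM. These cell sets also differed in stage. Early prophase cells by marker made up 35%, 42.5%, 35.1% and 60.2% of the Stra8-rich cells, against 24.7%, 31.9%, 2.34% and 21.9% of cells with none. Rdh10 stood at 9.13 to 18.3 CPM in early prophase cells and at 4.29 to 5.22 CPM in differentiating spermatogonia. The part of stage in the levels by Stra8 was not tested.

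The rest of the pathway was read from lists of 61 other genes. Receptors and cofactors were the steadiest: all 12 were measured over all cells and none was 2-fold apart in any of the 4 comparisons. Of the genes for uptake, storage and transport, 5 are given here for interstitial cells. Crabp2, a carrier of retinoic acid, and Lrat, which esterifies retinol for storage, were higher in the 2-day culture than at 9 dpp, Fabp5, a fatty acid binding protein, was lower, and Rbp4 and Dgat1 were not apart, where 13.1% of all genes were apart. In the 7-day pair Lrat alone was apart, and lower, against 9.62%. Lrat stood at 9.29, 1.44, 1.38 and 15 CPM, Crabp2 at 5.76, 0.144, 0.851 and 0.404 CPM and Fabp5 at 26.6, 29.9, 69.3 and 54.4 CPM.

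Among 14 measured enzymes of retinoid oxidation and reduction, Dhrs3, Adh1 and Adh7 were higher in the 2-day culture over all cells, 3 of 14 against 4.19% of all genes, and none was lower, against 3.41%. In the 7-day pair Adh4 alone was apart, and lower, 1 of 14 against 2.67%. Within Sertoli cells 1 of 11 was higher (Dhrs3) and 1 lower (Adh4) in the 2-day pair, against 12.6%. In their 7-day pair 1 was higher (Rdh5) and 3 lower (Adh4, Aldh1a3 and Retsat), against 17.4%. Of 12 measured in germ cells, Adh1 was higher and Aldh1a3 lower in the 2-day pair, against 4.44%. In their 7-day pair Aldh1a3 was lower, against 3.26%. Of 10 in interstitial cells, Adh1 alone was apart, and higher, in both pairs, against 13.1% and 9.62%. Dhrs3, which reduces retinaldehyde back to retinol, stood in Sertoli cells at 28.4, 11.1, 6.45 and 8.09 CPM. Adh1, an alcohol dehydrogenase, stood in interstitial cells at 37.0 and 35.5 CPM in the cultures and 2.34 and 8.90 CPM in vivo. Of the breakdown enzymes measured, Cyp26a1 was lower in the 7-day culture than at 14 dpp, where its Sertoli level was 19.2 CPM against 0.579 to 1.54 CPM in the other libraries. Among 15 measured genes known to respond to retinoic acid, Tgm2 was higher in the 2-day culture over all cells and 14 were not apart, a share of 1 in 15 that is near the 4.19% of all genes. In the 7-day pair Egr1 was higher, against 3.6% of all genes, and Rarres1 and Lhx8 were lower, against 2.67%. Within cell types the list went both ways. In Sertoli cells 3 of 10 measured were higher and 1 lower in the 2-day pair, where 12.6% of all genes were apart in either direction, and 4 were higher and 2 lower in the 7-day pair, against 17.4%. In germ cells 1 of 14 was higher in the 2-day pair, against 4.44%, and 3 were lower in the 7-day pair, against 3.26%. In interstitial cells 2 of 9 were lower in the 2-day pair, against 13.1%, and 1 was higher and 2 lower in the 7-day pair, against 9.62%. Tgm2, a transglutaminase, stood in Sertoli cells at 155, 48.1, 22.4 and 15.5 CPM. Rec8, a meiotic cohesin, stood in germ cells at 31.7, 22.1, 23.1 and 19.1 CPM, with no 2-fold difference between culture and in vivo.

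For each member the 3 genes of most similar pattern were named from Pearson's r of log2(CPM + 1) over 24 points, 6 sets of cells in 4 libraries: differentiating spermatogonia, early prophase cells, Sertoli, Leydig, stromal and myoid cells. These points share libraries and depth, so r is a description. They were Capn6, Inhbb and Gm48287 for Stra6 (r 0.97 to 0.95) and Tmed10, Tnfrsf11b and Ptcd2 for Rdh10 (0.82 to 0.79). For Aldh1a1 they were Pgap2, Rmdn2 and Nr5a1 (0.98 to 0.97), and for Aldh1a2 Ube2z, Slc11a2 and Brms1 (0.87 to 0.86). Crabp1 went with Khdrbs2, Pls1 and Tuba3b (0.98), and Cyp26b1 with Egflam, Aoc3 and Sct (0.94 to 0.93). Rara went with Mta2, Prpsap1 and Camkk2 (0.92 to 0.88), and Rarg with Gm14964, P3h3 and Fbln1 (0.88 to 0.84). Stra8 went with BC055324, Prr19 and Mbnl3 (0.98).

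In the GENCODE M21 annotation of GRCm38 the members lie apart on 6 chromosomes, with Stra8 and Cyp26b1 both on chromosome 6 and Crabp1, Stra6 and Aldh1a2 on chromosome 9. Stra6 overlaps Ccdc33 on the opposite strand and Gm16131 on its own. Aldh1a2 overlaps Gm48124, and Aldh1a1 overlaps C730002L08Rik and Gm6684, all opposite, while Rara overlaps Gm22061 on its own strand. The strand setting of the counting was not given in the sources used here, so reads of opposite genes cannot be told apart, and those of same-strand genes not by strand.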

How the data were processed

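Single-cell RNA-seq counts were analysed from 4 libraries, 1 per group. The deposited matrices hold whole-number counts of UMIs for every gene in every barcode; the submitters' processing notes name Cell Ranger 3.0.2 and mm10. Cell calling, strand setting and annotation release were not given in the sources used here.

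Barcodes with under 500 genes or over 20% mitochondrial UMIs were dropped, and Scrublet doublet calls (expected 6%) were removed, 93 to 253 per library. A cell took the type with the highest marker-UMI share relative to that type's own reference level. It needed at least 3 marker UMIs from 2 markers, and a runner-up at most 50% as high, else it was left as mixed. This rule was set after values were seen. Near that limit 191 cells fell just inside and 129 just outside. Clusters came from scanpy 1.11.5 (2000 variable genes without members, retinoid-list or mitochondrial genes, 30 components, 20 neighbours, Leiden resolution 1). The genes leading a cluster were those with the largest fold over all other cells.

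UMIs were summed per type and library and given as CPM with exact Poisson 95% intervals. Ratios are log2 of CPM + 1 where the 4 libraries together held 50 or more UMIs of the gene in that type, with delta-method intervals. A difference was called at 2-fold, without a test. Shares of cells carry exact Clopper-Pearson intervals. On simulated counts for the 2-day pair (16620 genes) the call took 40 of 50 genes changed 3-fold, 39 of 50 changed 4-fold, 48 of 50 changed 8-fold, 0 of 50 changed 1.5-fold and 0 of 16420 unchanged. The simulated counts were Poisson draws from a mean common to the 4 libraries, without variation between animals, libraries or cell mixtures. They therefore give no rate of false calls for the real libraries.

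Named genes were the 9 members, any gene of the retinoid lists, and the 3 most alike genes per member. The members and lists were chosen with earlier results of these data known. Alternatives comprised the added constant, the UMI minimum, TMM scaling (edgeR 4.0.16), doublets kept, cell filters, equal cell weights, cluster-based and stricter typing, thinning and free RNA subtraction. Endothelial cells, pericytes and macrophages, under 50 cells in at least 1 library, were not analysed here. One gene of the retinoid lists is not reported here.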

Additional observations from a re-analysis of the deposited data

Results flagged for a closer look

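Cyp26b1 in Leydig cells went opposite ways in the matched pairs: the log2 ratio of culture over in vivo was -2.62 after 2 days and 2.39 after 7 days. The difference between the pairs was not tested, since each group was 1 library with 60 to 98 Leydig cells. With cells typed by cluster the 7-day ratio was 0.62. No cause was tested.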

How the results depend on the processing

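Of 284 results, 73 were at least 2-fold apart, and these were recomputed under 720 alternatives: 636 kept the call, 78 kept the direction only and 6 turned. Among 1708 alternatives of the other results 39 passed 2-fold. The count of members apart between the 7-day culture and 14 dpp was 0, and 1 under a cell filter of 1000 genes and 10% mitochondrial UMIs (Crabp1) and with each cell weighted equally (Cyp26b1). The count from 9 to 14 dpp was 1, and 0 with 10 CPM added. With cells typed by cluster, which left 2 to 8 cells of each culture in each of the myoid clusters 15 and 18, myoid ratios turned for Crabp1 in the 2-day pair (-3.24) and for Stra8 in the 2-day pair (-2.90), the 7-day pair (2.37) and from 2 to 7 days of culture (6.70). Crabp1 of interstitial cells in the 7-day pair turned to 0.41 with free RNA subtracted, and Rara of Leydig cells from 9 to 14 dpp to 0.58 in thinned cells. These myoid ratios rest on too few cells to be read. For Rara the cause was not tested. Stage typing without a runner-up limit and the settings for Stra8 in the 6 shared germ clusters were added after seeing the data. Stra8 in cluster 5 ranged from 2.54 to 2.59 and from 2.58 to 2.77, and in cluster 10 from 1.05 to 1.46 and from 1.40 to 1.60, and in the other 4 it stayed under 2-fold. No paired analysis was possible because each group was 1 library. Leydig cells, with 60 to 98 per library, and genes under 10 CPM are limited by depth.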
